A study of Gallus gallus with 6 samples.

Results

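The genes IFNAR1 and IFNGR1, which encode receptor chains for type I interferon and interferon gamma, JAK2, which encodes a tyrosine kinase bound to cytokine receptors, and RSAD2, which encodes the antiviral enzyme viperin, were all listed at higher levels in mature than in immature livers of breeder roosters. They were taken by gene symbol from the authors' table of mRNAs, where each of the 4 has 1 row among 1480. The study followed postnatal maturation of the liver in Arbor Acres breeder roosters, a broiler breed, by RNA sequencing after removal of ribosomal RNA. Immature livers came from chicks aged 1 day, with 3 libraries that each pooled RNA of 4 livers, and mature livers came from roosters aged 40 weeks, with 3 libraries of 1 liver each. All birds were males and feed was withdrawn before sampling, and the labels name no further treatment. The groups differ in age and in the pooling of livers. The paper also describes caging, a set photoperiod and feed by a breed standard for the roosters, and none of these for the chicks. Below, "before maturation" refers to the immature and "after maturation" to the mature livers.

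Interferons are secreted proteins by which cells warn each other of viruses and other intracellular pathogens. The type I interferon receptor is a pair of chains, IFNAR1 and IFNAR2, and the interferon gamma receptor is made of IFNGR1 and IFNGR2. By knowledge that comes mainly from mammals, IFNGR1 works with JAK1 and IFNGR2 with JAK2, the chains of the type I receptor work with TYK2 and JAK1, and the activated kinases phosphorylate STAT proteins, which then switch on interferon-stimulated genes such as RSAD2. JAK2 also serves the receptors of growth hormone, erythropoietin and several interleukins. The liver holds many resident macrophages and other leukocytes beside its hepatocytes, and all of these cells can carry interferon receptors.

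The authors' table gives 1 FPKM value per group for each row (the fragment count of a transcript divided by its length and by the mapped fragments of the library), with no value per library and no read count. The values below are therefore the authors' group values, without an error, and no test of the difference between mature and immature livers was possible. The paper gives the mapped reads of each library, fewer in every immature than in every mature library, but the number of reads behind each value is unknown. The table holds only rows that the authors had selected as differing between these groups. Among its 1466 rows above 0 in both groups, 803 were higher and 663 lower in mature livers, and none differed by less than 2-fold. A difference in FPKM of at least that size was thus given for all 4 genes by their being listed. The list of differing mRNAs that the paper reports is not the same, and most of its mRNAs were lower in mature livers. Shares of all rows given below therefore hold for these 1480 rows alone. For a bulk tissue, a change in the number of cells of a type and a change in RNA per cell cannot be told apart.

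IFNGR1 had the highest level of the 4 genes in each group. It was listed at 10.5 FPKM before and 26.3 FPKM after maturation, a ratio of 2.51. The row, transcript ENSGALT00000031776, lies on chromosome 3 from 54084781 to 54107728, in the coordinates of the files. Their build is not stated for these files, and the methods of the paper name Galgal5 for its mapping. IFNGR1 stood above 73.0% of the listed mRNAs in immature livers and above 82.8% in mature livers. Its partner chain IFNGR2 is not listed and has no value here.

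IFNAR1 came next, with 6.96 FPKM before and 21.5 FPKM after maturation, a ratio of 3.09. Its row (ENSGALT00000025691) lies on chromosome 1 from 104652220 to 104670998. The level was above that of 65.6% of the listed mRNAs in immature livers and 80.6% in mature livers. IFNAR2, the other chain of the same receptor, was listed at 4.69 and 10.7 FPKM, a ratio of 2.29. Both chains were higher in mature livers, and the ratio of IFNAR1 to IFNAR2 was 1.49 before and 2.00 after maturation. The level of IFNGR1 was 1.5 times that of IFNAR1 before and 1.22 times after maturation, so that this pair lay closer together in the adult birds, while IFNAR1 and IFNAR2 lay further apart.

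JAK2 was listed at 2.23 FPKM before and 5.98 FPKM after maturation, a ratio of 2.68. The gene lies on the sex chromosome Z (27391528 to 27477528, transcript ENSGALT00000024235), of which all male chickens carry a pair. Its level exceeded that of 42.9% of the listed mRNAs in immature livers and 59.7% in mature livers. Relative to JAK2, IFNAR1 stood at 3.12 times its FPKM before and 3.60 times after maturation. For IFNGR1 these values were 4.68 and 4.39. Both receptor chains were thus listed above the kinase at both ages. Of the other Janus kinases, JAK1, JAK3 and TYK2 are not listed.

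RSAD2 had the lowest level of the 4 genes and the largest ratio. It was listed at 0.161 FPKM before and 2.80 FPKM after maturation, a ratio of 17.4. A ratio over so low a value moves much with small changes in it, and the reads behind it are unknown. In immature livers only 5.47% of the listed mRNAs had a lower value, against 43.4% in mature livers. The row (ENSGALT00000026450) lies on chromosome 3 from 94588854 to 94596832, and the files name its product only as an uncharacterized protein, with gene ontology terms for defence against viruses, an iron-sulfur cluster and the endoplasmic reticulum. Viperin, a radical SAM enzyme, makes a chain-terminating nucleotide from CTP in human cells. JAK2 was 13.8 times the FPKM of RSAD2 before and 2.13 times after maturation.

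**Figure D1:**
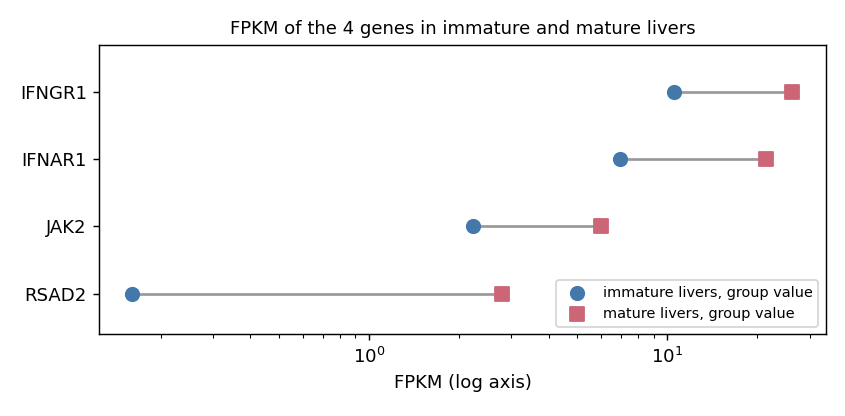
FPKM of IFNGR1, IFNAR1, JAK2 and RSAD2 on a log axis, with a circle for the authors' group value of immature livers and a square for that of mature livers. The order of the genes is the same at both ages, and the line of RSAD2, from 0.161 to 2.80 FPKM, is the longest.

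The order IFNGR1, IFNAR1, JAK2, RSAD2 held in both groups; with 1 value per group, it is not known whether neighbours in it differ beyond the spread between birds. In size of the ratio the order was RSAD2, IFNAR1, JAK2, IFNGR1. Among the 803 rows that were higher in mature livers and above 0 in both groups, the median ratio was 3.49. IFNAR1, JAK2 and IFNGR1 lay below this median, with 55.7%, 67.1% and 74.7% of these rows at a larger ratio. RSAD2 lay above it, with 7.72% of them at a larger ratio.

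The pseudocount of 1 in log2(FPKM + 1) compresses differences of genes with low values. On this scale the differences of mature minus immature livers were 1.5 for IFNAR1, 1.25 for IFNGR1, 1.11 for JAK2 and 1.71 for RSAD2. A row is counted here as past 2-fold when this difference is over 1 or under -1. All 4 genes were higher, against 54.9% of all 1480 rows, and all 4 were past 2-fold and higher, against 35.9%, with 29.8% past 2-fold and lower. Their median difference was 1.37, and that of all rows 0.64. JAK2, the smallest of them, lay just inside the limit. Rows above 0 in both groups fell short of the limit only through the pseudocount, since none differed by less than 2-fold in plain ratio. The shares past 2-fold, here and below, thus reflect level of expression as well as size of change. On this scale 13.6% of all rows had a larger difference than RSAD2, 17.8% than IFNAR1, 24.5% than IFNGR1 and 31.0% than JAK2. With all differences centred on the median of the listed mRNAs, RSAD2 alone stayed past 2-fold and higher (1.07; 15.0% of all rows), while IFNAR1 (0.86), IFNGR1 (0.61) and JAK2 (0.47) did not. None of the 4 was past 4-fold on this scale, where 9.46% of all rows were past 4-fold and higher.

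**Figure D2:**
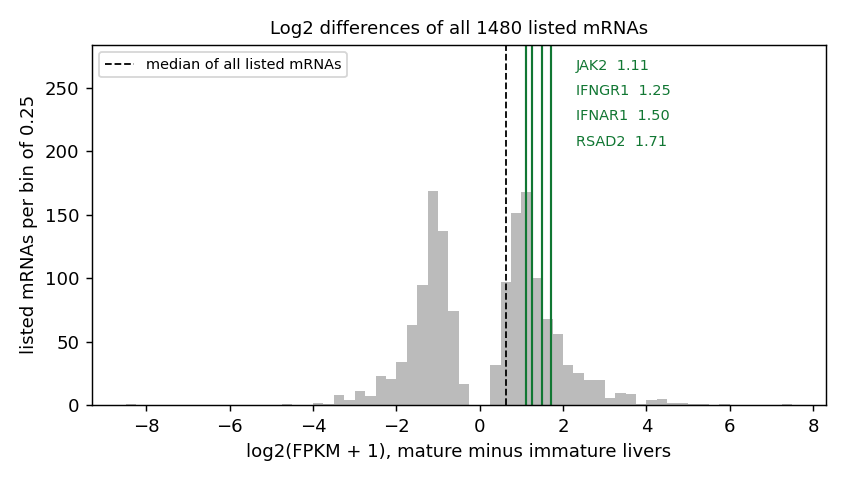
Number of listed mRNAs by their difference in log2(FPKM + 1), mature minus immature livers, with the 4 genes as lines and the median of all rows (0.64) as a dashed line. The table has a gap around 0, and the 4 genes, at 1.11 to 1.71, lie within its upper mode.

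STAT3, which carries signals of the interleukin 6 family among others, was listed at 3.90 FPKM before and 13.7 FPKM after maturation, a ratio of 3.51. It stood at 1.75 times the FPKM of JAK2 before and 2.29 times after maturation. STAT2, for type I signals in mammals a partner in the complex that enters the nucleus, is not listed and has no value here.

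Antiviral genes with interferon-related symbols covered a wide range of levels. IFI27L2, a small interferon-inducible protein, had the highest level among them, at 14.0 FPKM before and 182 FPKM after maturation. OAS*A, which RefSeq names OASL and which belongs to the oligoadenylate synthase family of sensors of double-stranded RNA, was listed at 0.617 and 8.84 FPKM. IFIH1, the RNA sensor also known as MDA5, was low in both groups, at 0.527 and 1.62 FPKM. These genes and STAT3, 4 rows in all, were higher in mature livers and 3 of them past 2-fold, with a median difference of 2.10, where 35.9% of all rows were past 2-fold and higher. IFIH1 (0.78) was the exception on this scale through the pseudocount, as its plain ratio was 3.07. No symbol in the table began with MX.

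Over a list of 95 genes of the interferon pathway, 20 were listed, 19 of them higher in mature livers and 1 lower. Past 2-fold were 17, all higher, beside 35.9% of all rows past 2-fold and higher and a median of 0.64 over all rows. With centring on that median 7 were past 2-fold and higher and 1 lower. The 4 genes described belong to this list. Without them 16 genes were listed, 15 higher and 1 lower, 13 of them past 2-fold and higher, and their median difference was 1.49. The genes of the list that are not listed, 75 in number, have no value and are not counted as unchanged.

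By role, 3 of 6 receptor genes and 1 of 4 kinases were listed, all higher, where 54.9% of all rows were higher. They are IFNAR1, IFNGR1, IFNAR2 and JAK2, so that IFNAR2 alone adds to the genes described. Among 12 genes that dampen the signal, 3 were listed, each higher and past 2-fold, beside 54.9% of all rows higher and 35.9% past 2-fold and higher. PTPN2, a phosphatase that in mammals acts on JAK1 and STAT proteins, was at 4.36 FPKM before and 32.8 FPKM after maturation. PTPN6, a phosphatase of blood cells, was at 4.22 and 25.7 FPKM. SOCS2, an inhibitor of the growth hormone receptor that acts with JAK2, was at 2.12 and 6.69 FPKM. These phosphatases had larger differences (2.66 and 2.35) than JAK2 (1.11) and the receptor chains. SOCS2 (1.30) exceeded JAK2, IFNGR1 and IFNAR2 but not IFNAR1. In plain ratio SOCS2 (3.15) lay slightly above IFNAR1 (3.09).

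Among 43 interferon-stimulated genes, 11 were listed, 10 of them higher and 9 past 2-fold, beside 54.9% and 35.9% of all rows. CCL19, a chemokine that attracts T cells and dendritic cells, was at 0.193 FPKM before and 3.50 FPKM after maturation, values close to those of RSAD2. TAP1, which carries peptides to class I molecules, was at 0.0839 and 1.86 FPKM and shares its assembled locus with the class I gene BF1. EPSTI1, an interferon-inducible gene in mammals, was at 0.0449 and 1.18 FPKM. Like RSAD2, these genes had levels well below the median of the listed mRNAs, 3.25 FPKM, before maturation.

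DTX3L and PARP9, whose proteins form a complex and whose rows share an assembled locus, were at 4.24 and 12.8 FPKM and at 3.53 and 7.22 FPKM. UBA7, the enzyme that in mammals activates the ubiquitin-like protein ISG15, was the exception in direction, at 7.86 FPKM before and 3.60 FPKM after maturation (log2 difference -0.95). Of 16 sensors and adaptors IFIH1 was the only one listed.

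**Figure D3:**
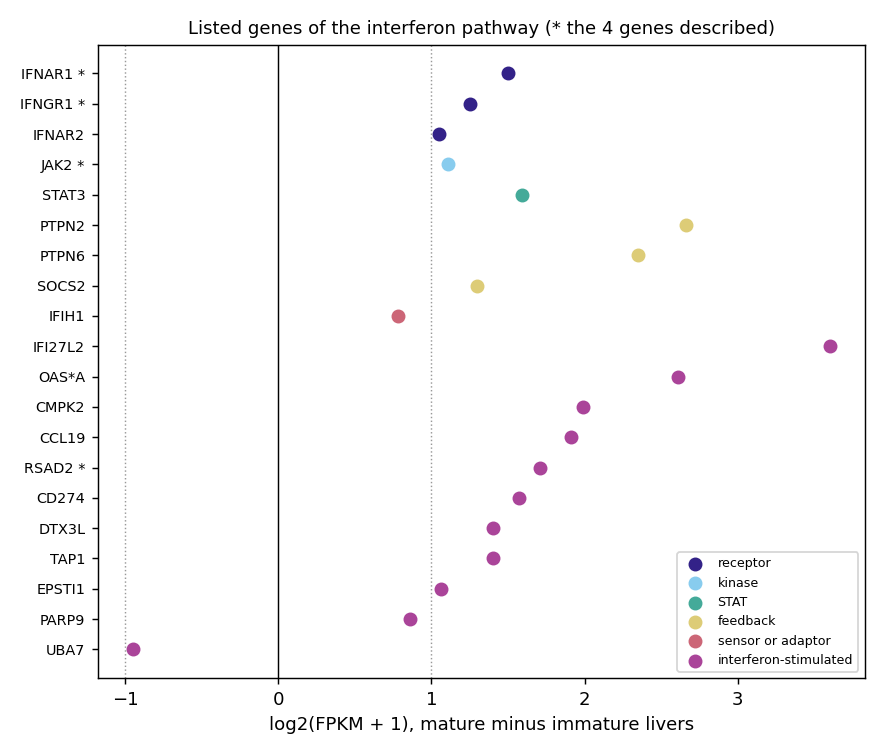
Difference in log2(FPKM + 1), mature minus immature livers, of 20 listed genes of the interferon pathway by role, with dotted lines at a 2-fold difference and asterisks on the 4 genes described. All points but UBA7 (-0.95) lie right of 0, and IFI27L2 lies furthest (3.60).

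JAK2 serves other cytokine receptors too, and of 20 receptor genes that couple to it 1 was listed. This was CSF2RB, the chain shared by receptors of interleukin 3, interleukin 5 and granulocyte-macrophage colony-stimulating factor, at 0.370 FPKM before and 3.90 FPKM after maturation. Of 4 target genes of growth hormone and JAK2 in liver, SOCS2 was the only one listed. The receptors of growth hormone, erythropoietin and leptin are not listed.

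In the KEGG terms that the table carries, IFNAR1, IFNGR1 and JAK2 share the Jak-STAT signaling pathway, together with influenza A and herpes simplex infection. RSAD2 has no KEGG term. The Jak-STAT pathway had 11 rows in the table, all higher in mature livers and all past 2-fold, with a median difference of 1.31, where 54.9% of all rows were higher and 35.9% past 2-fold and higher. Of these 11 rows, 3 are IFNAR1, IFNGR1 and JAK2 themselves. Only 327 of the 1480 rows carry a KEGG term. STAT3, SOCS2 and IL22RA2, all higher, are listed without the Jak-STAT term. So are the receptor chains IL20RA (-1.02) and IL22RA1 (-0.42), which were lower. The count thus covers the rows annotated with this term alone. The infection terms were mixed. Influenza A had 17 rows, of which 14 were higher and 3 lower, with 9 past 2-fold and higher and a median of 1.05. Herpes simplex infection had 18 rows, of which 16 were higher and 2 lower, with 12 past 2-fold and higher and a median of 1.18. The gene ontology term for cytokine-mediated signaling, which holds the same 3 genes as the Jak-STAT pathway, was mixed too. It had 10 rows, of which 8 were higher, all past 2-fold, and 2 lower, with a median of 1.23. These groups were looked at after their values had been seen. Beside genes already described the Jak-STAT pathway holds IL2RG, the common gamma chain of interleukin receptors, at 8.41 and 43.9 FPKM. Further members are IL7R at 0.545 and 7.12 FPKM and IL10R1, a receptor chain for interleukin 10, at 0.126 and 1.79 FPKM. The pathway also holds IL21R at 0.0202 and 1.46 FPKM, and the cell cycle gene CCND3 at 4.08 and 10.7 FPKM. Within this pathway IFNGR1, IL2RG and IFNAR1 had the highest levels in immature livers, and IL2RG that in mature livers.

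Close to each of the 4 genes lies another listed gene of immune function. RSAD2 lies 4.67 kb from CMPK2, a mitochondrial nucleotide kinase that is also interferon-inducible in mammals, which was listed at 1.03 FPKM before and 7.05 FPKM after maturation (log2 difference 1.99). CMPK2 stood at 6.38 times the FPKM of RSAD2 before and 2.51 times after maturation, so both neighbours were higher in mature livers and RSAD2 by the larger ratio. Sox11, a transcription factor gene 450 kb away, was lower in mature livers, at 3.11 and 0.850 FPKM (-1.15), and no listed lncRNA lies within 500 kb of RSAD2.

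IFNAR1 lies 21.2 kb from IFNAR2. In the gene order of RefSeq (assembly GRCg7b), IL10RB stands between them and IFNGR2 follows IFNAR1, so that 4 cytokine receptor genes form a row. The table lists the type I chains only. C21orf62, 135 kb away, was listed at 0.556 and 14.5 FPKM, and ENSGALG00000015888, 257 kb away, at 0.397 and 4.78 FPKM. The neighbours ENSGALG00000016007 at 292 kb (489 and 237 FPKM, log2 difference -1.04) and MIS18A at 441 kb (8.39 and 3.82 FPKM, -0.96) were lower in mature livers. No listed lncRNA lies within 500 kb of IFNAR1.

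IFNGR1 is followed by IL22RA2 at 4.56 kb and IL20RA at 38.2 kb, which belong to the same family of class II cytokine receptors. IL22RA2, in mammals a soluble decoy for interleukin 22, was at 0.101 FPKM before and 1.54 FPKM after maturation (log2 difference 1.21). IL20RA, a receptor chain for interleukins 19, 20 and 24 in mammals, went the other way, at 7.40 and 3.14 FPKM (-1.02). The intergenic lncRNA TCONS_00044217, 69.0 kb from IFNGR1, was also lower in mature livers, at 1.10 and 0.178 FPKM (-0.84). The listed neighbours of IFNGR1 thus did not share its direction throughout.

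JAK2 lies 50.2 kb from CD274, which encodes the immune checkpoint ligand PD-L1, an interferon-inducible protein in mammals. CD274 was at 0.336 FPKM before and 2.97 FPKM after maturation (log2 difference 1.57). An lncRNA overlapping the locus of CD274, annotated with gga-mir-6669, was at 0.783 and 2.43 FPKM (0.94). Further away the direction changed. ENSGALG00000018479 at 203 kb was lower in mature livers, at 8.62 and 0 FPKM (-3.27). SLC1A1, GLDC and an intergenic lncRNA at 221 kb (TCONS_00066143, 2.28 and 0.0488 FPKM) were also lower.

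**Figure D4:**
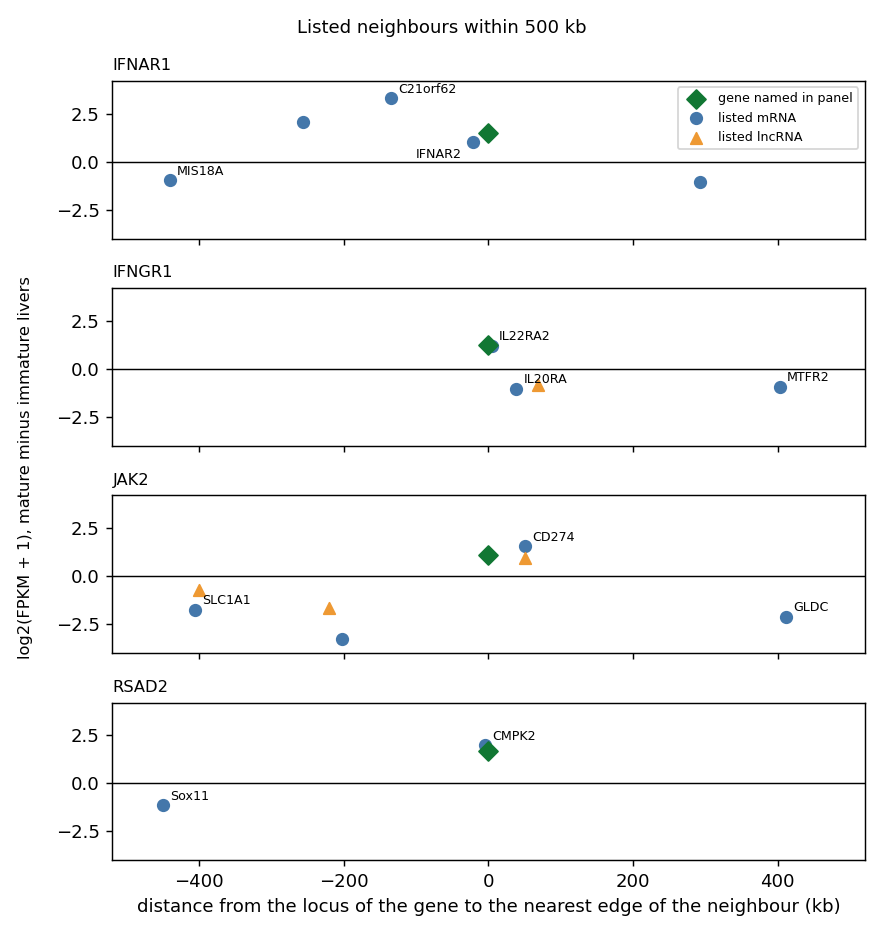
Difference in log2(FPKM + 1), mature minus immature livers, of listed mRNAs (circles) and lncRNAs (triangles) by their distance in kb from IFNAR1, IFNGR1, JAK2 and RSAD2 (diamonds), up to 500 kb. The nearest listed mRNA of each gene is also higher in mature livers, with differences of 1.05 to 1.99, where 54.9% of all rows are higher. Neighbours further away go both ways.

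The rows most like each gene, by distance between their log2(FPKM + 1) in the 2 groups, are given as a description, since 2 values per gene carry little pattern. For RSAD2 they were MMP9 (0.162 and 2.77 FPKM, distance 0.0123), a matrix protease that in mammals is stored in granulocytes, IL16 (0.132 and 2.81 FPKM), a cytokine of lymphocytes, and CST7 (0.0748 and 2.98 FPKM), a cystatin of leukocytes. For JAK2 they included C9orf91, at 2.25 and 5.85 FPKM (distance 0.0280), and LPCAT1, a phospholipid acyltransferase, at 2.41 and 6.17 FPKM. For IFNAR1 they were PKM, PIK3IP1 and ABHD12 at distances of 0.139 to 0.160, and for IFNGR1 COMTD1, SNX9 and SEL1L3 at 0.0927 to 0.125. PKM encodes pyruvate kinase and SNX9 a sorting nexin.

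The listed markers of leukocytes had the same direction as these genes. Of 44 leukocyte marker symbols 17 were matched, all higher in mature livers and 15 past 2-fold, with a median difference of 2.02. Of all rows, 54.9% were higher and 35.9% past 2-fold and higher, with a median of 0.64. The summed FPKM of the matched markers was 147 before and 992 after maturation. For macrophages and Kupffer cells 6 of 14 symbols were matched, all higher, with sums of 136 and 849 FPKM. The highest of these was CTSS, a lysosomal protease, at 60.0 and 442 FPKM. CD74 of this list was not matched by symbol. It encodes the invariant chain, which is carried as Ii at 22.4 and 548 FPKM and, in another row, at 7.06 and 205 FPKM. The Ii rows are in none of the marker counts and sums. For T and natural killer cells 6 of 13 symbols were matched, all higher, with sums of 3.16 and 61.6 FPKM, a ratio of 19.5. CD3Z, counted among the 13 as unmatched, is another symbol of CD247, which was matched. CD3D, a CD3 chain of the T cell receptor complex, was at 0.872 and 35.4 FPKM.

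For heterophils, the granulocytes of birds, 3 of 10 were listed (sums of 7.25 and 77.8 FPKM) and for B and plasma cells 2 of 8 (0.587 and 3.39 FPKM), all higher. None of the listed leukocyte markers was at 0 in either group. The single T and natural killer cell markers had ratios from 2.57 for CD28 to 133 for GZMA, and CD3D made up most of their sum in mature livers. Apart from CD28, the lowest of these ratios was 13.1, of IL7R. The ratio of RSAD2 (17.4) lay above that of IL7R. Those of IFNAR1 (3.09) and JAK2 (2.68) lay above that of CD28 only, and that of IFNGR1 (2.51) just below it. The B cell marker BLK, with a ratio of 2.34, was below all 4 genes. The 4 leukocyte sums had ratios of 5.79 to 19.5. RSAD2 lay within that range, and IFNAR1, IFNGR1 and JAK2 lay below it. The part of leukocytes in the levels of the 4 genes was not tested.

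Other cell types gave less. Of 12 hepatocyte markers the table lists CYP2H1 alone, a drug-metabolising cytochrome, at 108 and 321 FPKM, so that the liver label could be checked against few of its markers. Of 13 erythroid marker symbols it lists HBE1, an embryonic globin, at 3.99 and 0.0909 FPKM. The endothelial genes LYVE1 (7.39 and 17.1 FPKM) and STAB2 (7.72 and 3.61 FPKM) went opposite ways.

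**Figure D5:**
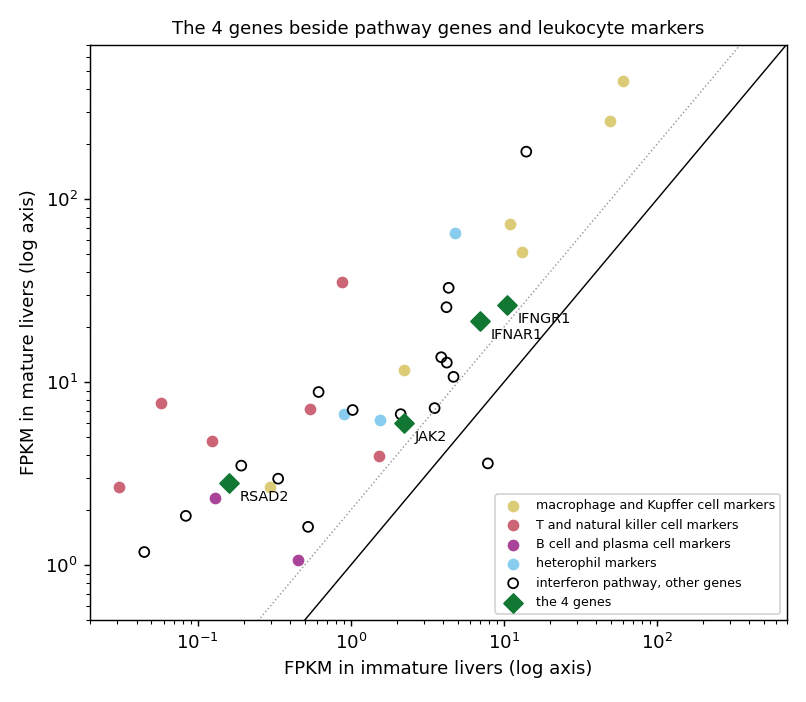
FPKM in mature against immature livers, both on log axes, of IFNAR1, IFNGR1, JAK2 and RSAD2 (diamonds), 16 other listed genes of the interferon pathway (open circles) and 17 leukocyte markers (filled circles). The solid line marks equal levels and the dotted line a ratio of 2. IFNAR1, IFNGR1 and JAK2 lie close above the dotted line, and RSAD2 lies among T cell and other low markers further from it.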

How the data were processed

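RNA of 6 liver libraries, 3 per group, was sequenced by the authors, who deposited tables of 1480 mRNAs and 622 lncRNAs with 1 FPKM value per group and row. The submitters' processing notes name FastQC, Bowtie2 2.0.6, TopHat, Cufflinks, Cuffdiff and DESeq without their roles. Further deposited columns hold the authors' own log2 ratios, p-values and calls of this comparison, and were not used. Coordinates are those of the files. The paper maps to Galgal5 but describes StringTie assemblies, whereas the files carry Cufflinks identifiers, so that build was not taken as theirs, and the locus of a row can span more than its gene. Gene ontology terms of 116 rows were not used here.

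Differences were taken as log2(FPKM + 1) of mature minus immature livers in Python 3.11.15 with pandas 2.3.3 and numpy 2.4.6. A check on simulated data with planted differences covered the arithmetic alone and bears on no result. With group values alone no test, SD or interval could be computed, and differences over 1 or under -1 were counted as past 2-fold. Neighbours were sought within 100 and 500 kb, and 3 rows were named for likeness. Gene order and symbols came from RefSeq (GRCg7b), in which all 4 genes matched. Genes named were those 4, listed rows of the symbols IRF, IFI, STAT, OAS and MX and of the pathway lists, the nearest and most alike rows, and markers. Genes of the Jak-STAT pathway by KEGG term, and further neighbours, were named after their values were seen. Some genes that these rules would name are not reported here and were left out of the list counts. The genes and lists were chosen with earlier results of these data known. As alternatives the pseudocount was set to 0.1, to 0.01 or left out, rows under a mean FPKM of 1 were dropped, and the comparison was repeated with centring on the median, other fold limits and sums over rows of a symbol.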

Additional observations from a re-analysis of the deposited data

How the results depend on the processing

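IFNAR1, IFNGR1, JAK2 and RSAD2 were higher in mature livers under every pseudocount, filter and scaling tried. A pseudocount or a filter cannot change the direction of a difference, so of these settings only the centring could have. The pseudocount of 1 shrinks the low gene RSAD2 most, from a plain log2 ratio of 4.12 to 1.71, with 3.47 and 4.04 at pseudocounts of 0.1 and 0.01. The plain ratio was added once the data had been seen. Centring on the median of all listed mRNAs lowered IFNAR1 to 0.86, IFNGR1 to 0.61 and JAK2 to 0.47, so that 1 of the 4 genes and 7 of 17 genes of the interferon pathway stayed past 2-fold and higher, with 222 higher and 667 lower rows over the whole table. By construction the centre, 0.64, is that of a table selected for difference in both directions, so this setting is no normalization of the libraries. At 4-fold with the pseudocount of 1, 0 of the 4 genes passed, although RSAD2 was past 4-fold in plain ratio and at both smaller pseudocounts. Over the whole table a pseudocount of 0.01 gave 810 higher and 668 lower rows, against 532 and 441. UBA7 became the 1 lower gene of the pathway past 2-fold with either smaller pseudocount and with centring. No paired analysis was possible because the deposited tables hold group values only, and for the same reason no library could be left out.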
